A study of Mus musculus with 11 samples.

Results

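Mouse oligodendrocytes that lacked Myrf and had spent 4 days in thyroid hormone were compared with oligodendrocyte progenitors held for 6 days in the mitogen PDGF. Of the 11 arrays of the study, 7 entered this comparison. They were the 3 arrays titled as MRF CKO oligodendrocytes and the 4 titled as cultured control OPCs. The other 4 arrays, of control oligodendrocytes, served as a reference for levels and for a second comparison. Each array was an Affymetrix Mouse Genome 430 2.0 array, and its values are MAS 5.0 signals on a linear scale.

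The knockout cells came from MRF fl/fl; Olig2 wt/cre mice, in which Cre is expressed from the Olig2 locus, a gene of the oligodendrocyte lineage. Control oligodendrocytes came from littermates that carried MRF wt/fl; Olig2 wt/cre, so Cre and 1 Olig2 allele used for it were common to both. For the progenitors the labels give no genotype beyond the word control. Brains of postnatal day 7 mice were the source of all cells, which were depleted of microglia on the lectin BSL1 and then selected by immunopanning on PDGFRα. They grew in serum-free medium with B-27. Knockout and control cells were moved from PDGF-AA at 10 ng/ml to triiodothyronine (T3) at 40 ng/ml, without PDGF, while the progenitors stayed in PDGF-AA. Genotype, mitogen, hormone and culture history therefore differ together between knockout cells and progenitors, and their parts cannot be told apart in this comparison. The labels do not say whether replicates of a group were separate animals or cultures, so p-values measure the spread between these arrays only.

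PDGF acts on its receptor PDGFRα to keep oligodendrocyte progenitors dividing. Its withdrawal together with T3, which binds nuclear hormone receptors, takes the cells out of the cell cycle and starts differentiation. Myrf (also MRF), a membrane-bound protein whose N-terminal part is released and binds DNA, is needed afterwards for the full set of myelin genes.

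Arrays 1, 2 and 4 of the progenitors stood apart. The counts of each gene list are given with and without them, and single genes where that changed a call. On arrays 1 and 4 the ratio of the 5′ to the 3′ Gapdh probe set was 0.332 and 0.12, against 1.15 to 1.23 on progenitor arrays 2 and 3 and 1.26 to 1.28 on the knockout arrays. The ratio for the spiked-in transcript dap was 0.0431 and 0.0251 on these arrays, against 0.223 to 0.476 on the other progenitor and knockout arrays. Their 18S ribosomal RNA 3′ probe set gave 5978 and 3791, against 68.9 to 184.3 in knockout cells, and progenitor array 3 gave 954. The 18S 5′ probe set was high on all 4 progenitor arrays, at 7806, 2110, 2357 and 6983, against 48.5 to 98.1 in knockout and 48.9 to 130.4 in control cells. Its part in the results was not tested. Progenitor array 2 had the usual ratios but differed in gene content: its level of mitosis genes, as a mean log2 signal, was 9.79 where the other 3 progenitor arrays had 11.75 to 11.96. The Pearson correlation of log2 signals over the 9791 genes tested was 0.958 to 0.971 between knockout arrays and 0.53 to 0.738 between knockout and progenitor arrays, as a description across genes.

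**Figure D1:**
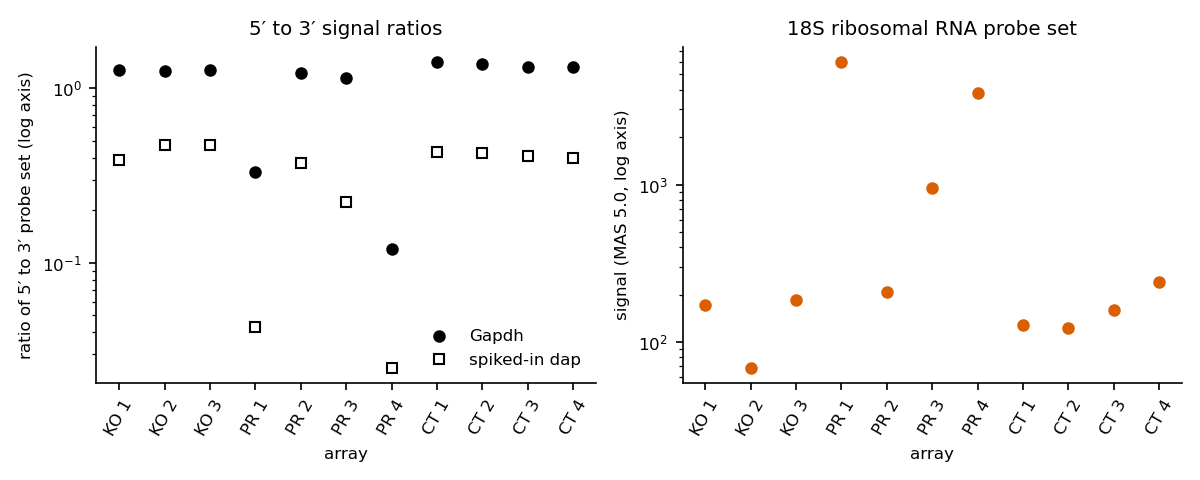
Left, the ratio of the 5′ to the 3′ probe set of Gapdh (filled circles) and of the spiked-in transcript dap (open squares) on each array, log axis. Right, the signal of the 18S ribosomal RNA 3′ probe set, log axis; KO, knockout, PR, progenitors, CT, control oligodendrocytes. Progenitor arrays 1 and 4 have the lowest ratios (Gapdh 0.332 and 0.12) and the highest 18S signals (5978 and 3791).

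Of 9791 genes tested, 1788 were higher in knockout cells (18.3%) and 2149 were lower (21.9%), by limma with adjusted p under 0.05. A gene was tested if its probe set reached a signal of 200 on at least 3 of the 7 arrays, so that genes bright in 1 group alone are included. The fitted difference was at least 2-fold for 1416 of the higher and 1353 of the lower genes, and at least 8-fold for 353 and 208. The median log2 difference over all genes was -0.07. Signals of the groups did not overlap for 50.1% of genes. Without progenitor array 2, 24.1% of genes were higher and 27.8% lower, and without arrays 1 and 4, 16% were higher and 15.9% lower. The counts were 1117 higher and 1222 lower without knockout array 1, 1078 and 1031 without knockout array 2, and 1238 and 1327 without knockout array 3. The gene lists are described by such counts, to be read against these shares, and they cover only members bright enough to be tested.

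**Figure D2:**
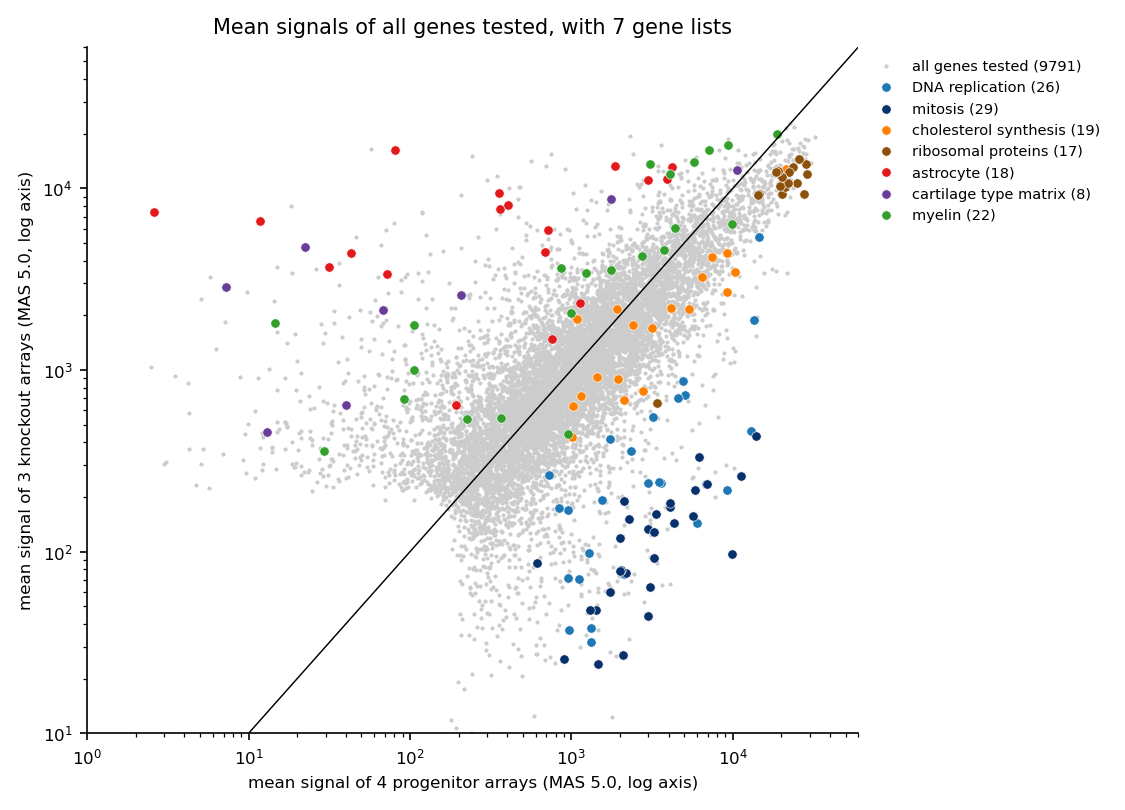
Mean signal of the 3 knockout arrays against that of the 4 progenitor arrays for the 9791 genes tested (grey), both axes log, with equality as a line and 7 gene lists in colour. Mitosis and DNA replication genes lie below the line, astrocyte and cartilage type matrix genes mostly above it, and ribosomal protein genes below it, mostly at the bright end.

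The transcription factor whose gene was deleted was still detected. Myrf gave 2849, 1904 and 2223 on knockout arrays 1 to 3 and 752, 6848, 1135 and 970.5 on progenitor arrays 1 to 4. Progenitor array 2 was above every knockout array and the other 3 progenitor arrays were below them, so the groups overlap. The log2 difference was 0.57 ± 0.69 (SE, adjusted p = 0.525). It was 1.29 (adjusted p = 0.00298) without array 2 and -0.28 (adjusted p = 0.766) without arrays 1 and 4. In control oligodendrocytes Myrf gave 6930 ± 620.1 (SD, n = 4), and the knockout arrays differed from them by -1.59 ± 0.15 (SE, adjusted p = 0.000332) on the log2 scale, a call lost in 1 fit of all 11 arrays (adjusted p = 0.169). The sources used here do not place the probe set relative to the deleted part of the gene.

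Genes of DNA replication were lower in knockout cells nearly throughout. Of 26 tested, 25 were lower, 0 higher, with a median log2 difference of -3.34 against -0.07 over all genes. Mcm5, a subunit of the helicase that opens DNA for copying, gave 241, 168 and 249 in knockout cells and 10670, 1485, 10652 and 14226 in progenitors, 32.4-fold lower (adjusted p = 0.00171). Its lowest progenitor array, array 2, was still well above every knockout array. Another helicase subunit, Mcm6, differed by -4.72 ± 0.53 (SE, adjusted p = 0.000623). Cdt1, which loads the helicase onto origins, was 29.5-fold lower (adjusted p = 0.00313), and Rrm2, the regulated subunit of ribonucleotide reductase, 23.5-fold lower (adjusted p = 0.00102). Pclaf, a partner of the sliding clamp PCNA, fell 32-fold (adjusted p = 0.000474). The gene that missed the threshold was Rfc3, of the clamp loader, at 236, 253 and 304 against 463, 494, 1600 and 343 (log2 difference -1.18 ± 0.49 SE, adjusted p = 0.0848). It passed when progenitor array 4 was left out (adjusted p = 0.0498) and without arrays 1 and 4, at -1.76 (adjusted p = 0.03). With the median of its probe sets Rfc3 also passed, at -1.52 (adjusted p = 0.019). Without progenitor array 2, 25 of the 26 were lower and the median was -4.01, and without arrays 1 and 4, 19 were lower with a median of -2.58.

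All 29 mitosis genes tested were lower in knockout cells, with a median log2 difference of -4.64. The proliferation marker Mki67 gave 116, 63.1 and 111 against 9456, 2615, 11836 and 15832, at least 75.9-fold lower (-6.47 ± 0.58 SE, adjusted p = 0.000282 on the log2 scale). For folds, signals under 100 were set to 100, and the fold is written as "at least" where this touched an array of the dimmer group. Knockout arrays lay under 120 and progenitor array 2, at 2615, was the lowest of its group. Top2a, the topoisomerase that untangles sister chromatids, fell from 11232 ± 5867 (SD, n = 4) to 262 ± 69.2 (SD, n = 3), 36.8-fold (adjusted p = 0.000513). Cdc20, an activator of the anaphase-promoting complex, was 28.4-fold lower at 484, 370.0 and 451 against 14855, 4721, 16844 and 19238. Ccna2 (cyclin A2) was 31.7-fold lower, Cdca8, of the chromosomal passenger complex, 30.7-fold, Cenpa, the centromeric histone, 27-fold, and Ube2c, an E2 enzyme of the anaphase-promoting complex, 26.8-fold. Their adjusted p-values were 0.000365, 0.00194, 0.000498 and 0.0004. The kinesin Kif2c was at least 27.6-fold lower (adjusted p = 0.00117), with all 3 knockout arrays under a signal of 100. All 29 remained lower without progenitor array 2 (median -5.09) and without arrays 1 and 4 (median -4.15). The median difference was -3.14 against array 2 alone and -4.84 to -5.28 against the other 3 arrays.

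Control oligodendrocytes had also been moved to T3. Mki67 averaged 462 ± 217 (SD, n = 4) there, and the knockout arrays lay below that by a log2 difference of -2.18 ± 0.40 (SE, adjusted p = 0.00808). In this second comparison 738 of 9515 genes were higher in knockout cells (7.76%) and 685 lower (7.2%), and of 16 mitosis genes bright enough to be tested 9 were lower. That count of 9 was 3 without knockout array 2 or 3 or control array 1, 4 without knockout array 1 and 15 without control array 2, and it was 4 with array weights and 2 in 1 fit of all 11 arrays. The 29 mitosis genes tested against progenitors had mean log2 levels of 6.4 to 6.91 on the knockout and 7.29 to 9.01 on the control arrays. Members dim in knockout cells could pass the filter only through control arrays, so the count of lower mitosis genes is partly set by it. With the replicate number as a block, here and below in a fit that also left out control array 4, 1220 genes were higher and 874 lower. Without control array 4 alone, 754 were higher and 636 lower. Without knockout array 1, 2 or 3 the count of higher genes was 347, 321 or 444. Both comparisons use the same 3 knockout arrays.

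Promoter sequence is shown for the mitosis list because its members moved together. RefSeq promoters of the GRCm38.p6 build, from 250 bases before to 50 after a start, matched 25 of the 30 listed genes with 26 promoters. The letters TTTGAA or TTTAAA, on either strand, which occur in the cell-cycle genes homology region (CHR), stood in 22 of these 26 (84.6%), against 27.6% of the 32851 promoters of the table. CCAAT, on either strand, stood in 76.9% of them against 37.4% of the table. For the DNA replication list, 24 genes with 29 promoters, the shares were 20.7% for the CHR letters and 62.1% for CCAAT. A match is a description of these letters and no evidence of a bound factor. The promoters printed are the 3 mitosis genes with the largest falls among those with 1 promoter in the table and a match before the start. The 250 bases before the start are given 5′ to 3′ with the CHR letters in capitals, for Mki67 at chr7:135716380-135716629 on the minus strand, Top2a at chr11:99024190-99024439 on the minus strand and Cenpf, a kinetochore protein named by this rule alone, with a log2 difference of -4.88, at chr1:189688087-189688336 on the minus strand.
Mki67: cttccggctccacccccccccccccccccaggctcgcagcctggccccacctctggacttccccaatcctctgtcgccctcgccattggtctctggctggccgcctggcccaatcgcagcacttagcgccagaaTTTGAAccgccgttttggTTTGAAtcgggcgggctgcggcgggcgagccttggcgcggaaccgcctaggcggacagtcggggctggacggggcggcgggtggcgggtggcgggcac
Top2a: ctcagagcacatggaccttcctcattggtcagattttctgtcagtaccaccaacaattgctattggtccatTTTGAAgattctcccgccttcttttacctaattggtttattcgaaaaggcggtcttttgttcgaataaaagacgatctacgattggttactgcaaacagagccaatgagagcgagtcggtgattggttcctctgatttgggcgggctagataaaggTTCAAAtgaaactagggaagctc
Cenpf: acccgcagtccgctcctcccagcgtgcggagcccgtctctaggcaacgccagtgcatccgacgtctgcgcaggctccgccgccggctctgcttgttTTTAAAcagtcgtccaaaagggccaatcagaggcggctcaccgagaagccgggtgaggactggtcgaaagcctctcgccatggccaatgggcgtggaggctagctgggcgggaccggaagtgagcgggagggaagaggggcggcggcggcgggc
The promoters of Mki67 and Top2a each hold 2 matches in this window and that of Cenpf holds 1.

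Control of the G1 phase, where cells decide on another division, moved in both directions. Of 19 genes tested, 5 were higher and 8 lower, with a median of -0.77. The counts were 5 higher and 11 lower without progenitor array 2, 3 higher and 7 lower without arrays 1 and 4, and 3 higher and 5 lower without any 1 knockout array or progenitor array 1. Ccnd1 (cyclin D1) gave 1022, 1458 and 1470 in knockout cells and 11451, 1353, 14605 and 12602 in progenitors, with array 2 within the knockout range. Its log2 difference was -2.49 ± 0.76 (SE, adjusted p = 0.032), and the call was lost when any 1 of the 6 arrays other than progenitor array 2 was left out (adjusted p up to 0.101), and also without progenitor arrays 1 and 4 together, at -1.77 (adjusted p = 0.156). Ccnd2 (cyclin D2) went the other way, at 5811, 5584 and 6242 against 910.1, 92.6, 1285 and 614, at least 11.3-fold higher (adjusted p = 0.0099). The cyclin Ccne2 was at least 11.2-fold lower (adjusted p = 0.00183) and the pocket protein gene Rbl1 12.2-fold lower (adjusted p = 0.00355).

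The inhibitors of cyclin-dependent kinases Cdkn1b, Cdkn2b and Cdkn1c were higher. Cdkn1b (p27), which accumulates as progenitors stop dividing, gave 1960, 2942 and 1630 against 976, 919.8, 797 and 722 with no overlap, 2.49-fold higher (adjusted p = 0.00534). Cdkn2b (p15) was at least 3.22-fold higher (adjusted p = 0.00455). Cdkn1c (p57) gave 4008, 4072 and 7525 against 165, 3455, 171 and 171, so that 3 progenitor arrays were near 170 and array 2 was close to the knockout arrays. The Cdkn1c difference was 3.79 ± 1.02 (SE, adjusted p = 0.0201). It lost its call without progenitor array 1, without any 1 knockout array (adjusted p up to 0.0719) and without progenitor arrays 1 and 4 together, at 2.69 (adjusted p = 0.102). Control oligodendrocytes had Cdkn1c at 771 ± 394 (SD, n = 4) and Cdkn1b at 1108 ± 259.6 (SD, n = 4).

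**Figure D3:**
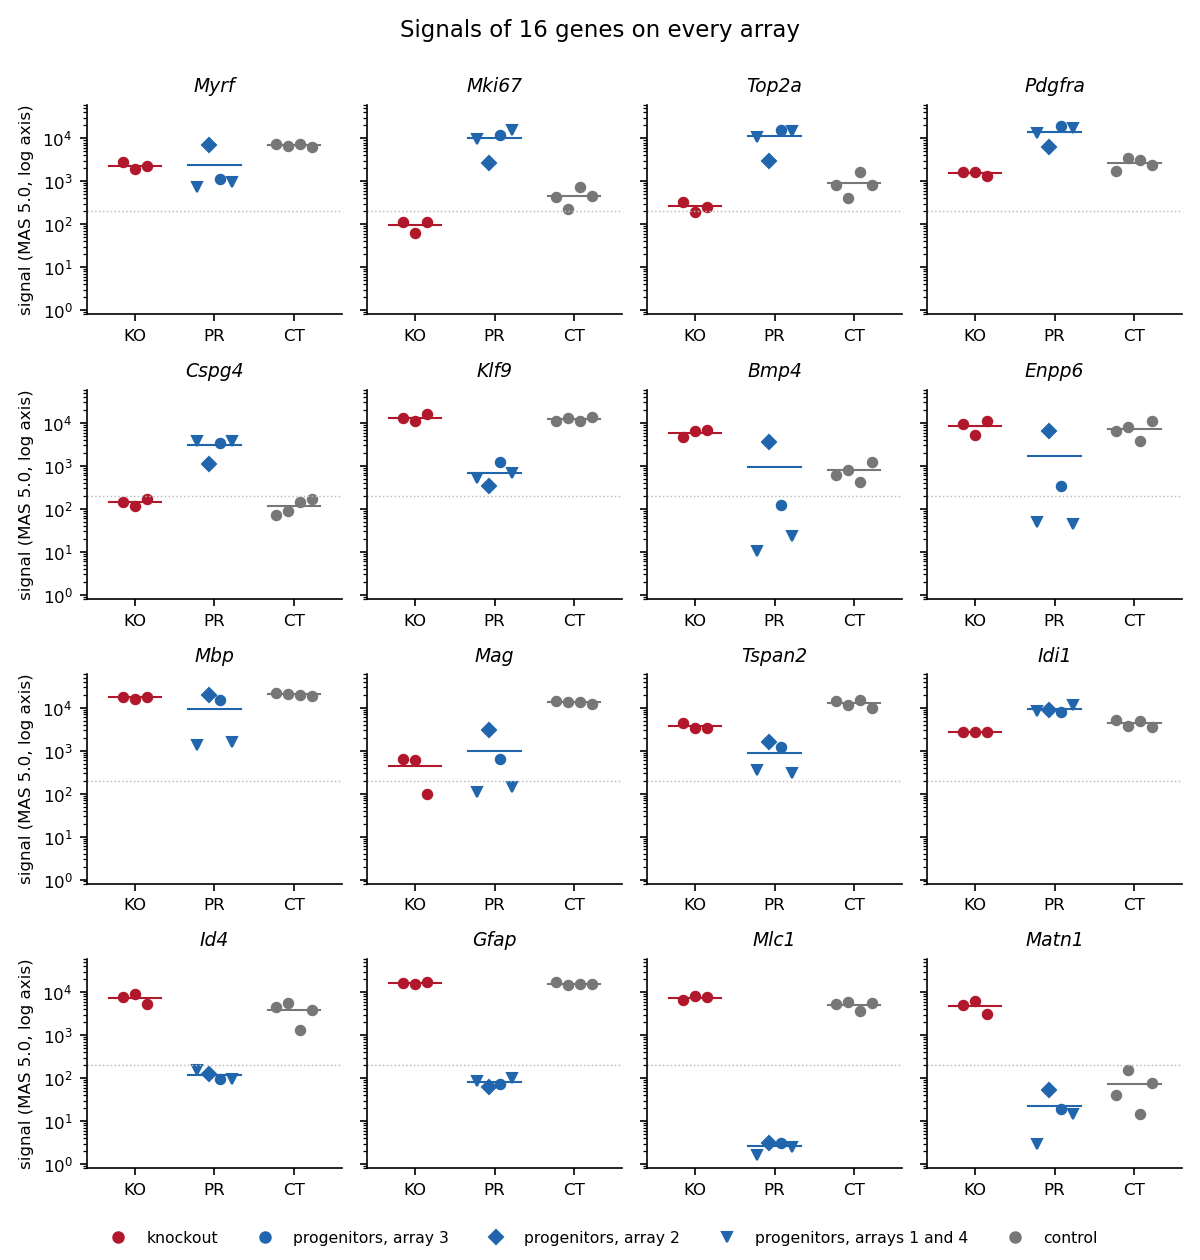
Signals (log axis) of 16 genes on every array of knockout oligodendrocytes (KO), progenitors (PR) and control oligodendrocytes (CT); horizontal bars are group means, and the dotted line marks a signal of 200. Mki67, Top2a, Pdgfra and Cspg4 are lower and Klf9, Id4, Gfap, Mlc1 and Matn1 higher on all 3 knockout arrays than on any progenitor array, whereas progenitor array 2 (diamond) lies close to the knockout arrays or above them for Myrf, Bmp4 and Enpp6.

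The receptor that PDGF acts on and the proteoglycan that marks progenitors were both much lower. Pdgfra gave 1634, 1665 and 1316 in knockout cells and 13500, 6309, 19102 and 16957 in progenitors, 8.42-fold lower (-3.08 ± 0.36 SE, adjusted p = 0.000807 on the log2 scale), and its knockout level was still above 1300. Cspg4 (NG2) fell by a larger factor, from 3850, 1131, 3506 and 3720 to 143, 118 and 167, 19.4-fold (adjusted p = 0.000448). Of 21 progenitor markers tested, however, 6 were higher and 7 lower, with a median of -0.26, and 6 higher and 9 lower without array 2 or 5 higher and 6 lower without arrays 1 and 4. Those lower included Pcdh15, a protocadherin (at least 10.3-fold, adjusted p = 0.000758), Megf11 (at least 6.47-fold, adjusted p = 0.000205) and Rlbp1, a retinoid-binding protein (4.11-fold, adjusted p = 0.00488).

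Other genes on the progenitor list were higher in knockout cells. Matn4 (matrilin 4) gave 7330, 5438 and 4921 against 65.6, 135, 67.7 and 14.6, at least 53.9-fold higher (adjusted p = 0.000377). In control oligodendrocytes Matn4 averaged 3376 ± 1489 (SD, n = 4); the knockout difference from them was 0.95 ± 0.42 (SE, adjusted p = 0.161), and 1.08 (adjusted p = 0.0441) with the replicate number as a block. C1ql1 was 11-fold higher (adjusted p = 0.000615), Emid1 at least 3.78-fold higher (adjusted p = 0.00282) and the proteoglycan Ncan (neurocan) 2.54-fold higher (adjusted p = 0.00302), the last lost with the median of probe sets per gene, at 0.95 (adjusted p = 0.231). Sox6, which acts against differentiation in progenitors, gave 7328, 4739 and 4502 against 7410, 6633, 5056 and 10959, ranges that overlap (log2 difference -0.42 ± 0.29 SE, adjusted p = 0.264). Control oligodendrocytes had 2165 ± 989 (SD, n = 4) of it.

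Genes induced through the ERK kinases, which relay PDGF and FGF signals, had a median log2 difference of 0.28 against progenitor array 2 and -0.96 to -1.27 against the other 3 arrays. Of 17 tested, 2 were higher and 4 lower, with a median of -0.90, and without progenitor array 2, 2 were higher and 12 lower. Leaving out knockout array 1, 2 or 3 gave 3, 2 or 1 lower with 1 higher each, leaving out progenitor array 1 or 3 gave 1 higher and 3 lower or 1 higher and 4 lower, and leaving out arrays 1 and 4 gave 2 higher and 1 lower. With array weights 12 were lower. The feedback inhibitor Spry4 gave 201, 107 and 41.6 against 1532, 214, 1073 and 1647, at least 6.75-fold lower (adjusted p = 0.0144). Its call was lost without knockout array 3 (adjusted p = 0.057) and without progenitor arrays 1 and 4, at -2.31 (adjusted p = 0.0767). Myc, a growth-promoting transcription factor, was 1.95-fold lower at 1329, 1125 and 930.5 against 2168, 2074, 2260 and 2229 (adjusted p = 0.00643), with the 4 progenitor arrays close together. The immediate early gene Egr1 did not pass, at 3352, 792 and 898 against 10128, 398, 5175 and 7272 (log2 difference -1.39 ± 1.07 SE, adjusted p = 0.317), but did without array 2, at -2.44 (adjusted p = 0.00536). The same held for Phlda1, at -1.42 ± 0.68 (SE, adjusted p = 0.125) with all arrays and -2.14 (adjusted p = 0.000131) without array 2. Junb, another immediate early gene, was at least 4.56-fold higher in knockout cells (adjusted p = 0.0041).

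Of 11 genes of thyroid hormone signalling tested, 4 were higher in knockout cells and 1 lower. Without progenitor array 2 they were 5 higher and 1 lower, and without arrays 1 and 4 they were 4 higher and 2 lower. Klf9, a zinc finger factor induced by T3, gave 13101, 11018 and 15849 against 533, 345, 1224 and 693, 21-fold higher (log2 difference 4.39 ± 0.40 SE, adjusted p = 0.000285), and every knockout array was above every progenitor array. Control oligodendrocytes averaged 12242 ± 1257 (SD, n = 4). Hr (hairless), a corepressor induced by T3, was 6-fold higher at 1641, 1769 and 1077 against 145, 253, 499 and 193 (adjusted p = 0.00279). The retinoid X receptor Rxrg, a partner of the hormone receptors, was at least 5.06-fold higher (adjusted p = 0.00148), and Dio2, the deiodinase that makes T3, at least 3.29-fold higher (adjusted p = 0.00472). The receptor gene Thra did not pass, at 3221, 3275 and 3177 against 2245, 4641, 904 and 1966 (adjusted p = 0.296), and passed without array 2, at 1.02 (adjusted p = 0.03). The lower gene, the coactivator Med1 (-1.21 ± 0.39 SE, adjusted p = 0.0397 on the log2 scale), lost its call when any 1 of 5 arrays was left out: knockout array 1 or 2 or progenitor array 1, 2 or 3 (adjusted p up to 0.147). It was also lost with no filter on low signals, at -1.21 (adjusted p = 0.0535).

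Markers of newly formed oligodendrocytes, the stage that precedes myelin, depended on single arrays of both groups. Of 18 tested, 6 were higher and 0 lower with all arrays, 10 higher and 0 lower without array 2, and 3 higher and 1 lower without arrays 1 and 4. The count of 6 fell to 1 without knockout array 1 or 2, to 2 without knockout array 3 or progenitor array 1, and to 3 without progenitor array 3 or 4. With array weights it was 11. Bmp4, a secreted ligand of the BMP pathway, gave 4679, 6438 and 6835 in knockout cells and 10.5, 3614, 120.5 and 23.5 in progenitors (log2 difference 5.86 ± 1.71 SE, adjusted p = 0.0269). Array 2 lay just under the knockout arrays and the other 3 were at or under 121. Enpp6, a choline phosphodiesterase, gave 9566, 5123 and 11306 against 49.3, 6560, 334 and 45.5, so array 2 lay within the knockout range (log2 difference 4.96 ± 1.55 SE, adjusted p = 0.0347). The zinc transporter gene Tmem163 gave 3365, 3366 and 3497 against 15.8, 1469, 280.2 and 34.8 (adjusted p = 0.0241), and Mycl 1473, 1526 and 1596 against 82.1, 755, 110.5 and 31.5 (adjusted p = 0.014).

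These calls rest on few arrays. Bmp4 and Enpp6 lost theirs when any 1 of the 6 arrays other than progenitor array 2 was left out (adjusted p up to 0.0846 and 0.0998), and without progenitor arrays 1 and 4 they stood at 3.16 (adjusted p = 0.0874) and 2.47 (adjusted p = 0.126). Tmem163 lost its call without any 1 knockout array or progenitor array 4 (adjusted p up to 0.076), Mycl without knockout array 2 (adjusted p = 0.0529), and Tcf7l2, a Wnt pathway transcription factor, without knockout array 1 or 2 or progenitor array 1 (adjusted p up to 0.0799) and, at 1.84 (adjusted p = 0.101), without progenitor arrays 1 and 4. With the median of its probe sets Tcf7l2 stood at 1.94 (adjusted p = 0.0986). Tcf7l2 itself gave 4904, 3166 and 2296 against 455, 2408, 351 and 385 (log2 difference 2.41 ± 0.65 SE, adjusted p = 0.0205). Gpr17, a receptor of committed progenitors, gave 12706, 10016 and 13929 against 4274, 16882, 7624 and 6716 and did not pass (adjusted p = 0.236), but did without array 2, at 1.01 (adjusted p = 0.0105). Bcas1 was bright in both groups, at 15500, 13284 and 17449 against 14751, 20100, 20350 and 18553 (log2 difference -0.26 ± 0.17 SE, adjusted p = 0.249), and after quantile normalization the sign turned, to 0.35 (adjusted p = 0.0231). Bmp4 in control oligodendrocytes averaged 784 ± 359 (SD, n = 4), and the knockout arrays exceeded them by 3.02 ± 0.33 (SE, adjusted p = 0.00055) on the log2 scale, a call lost in 1 fit of all 11 arrays (adjusted p = 0.322).

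**Figure D4:**
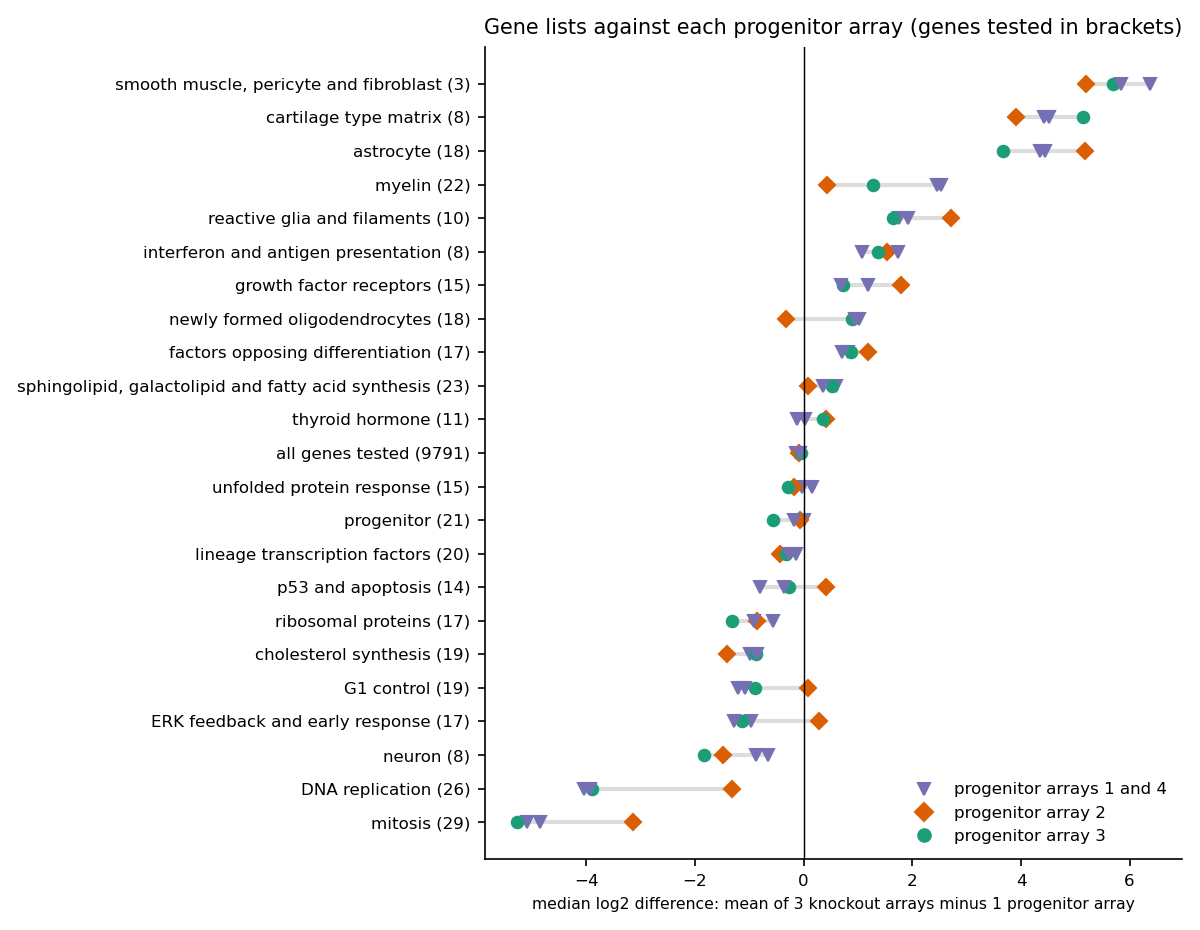
Median log2 difference of each gene list when the mean of the 3 knockout arrays is set against 1 progenitor array at a time (triangles, arrays 1 and 4; diamonds, array 2; circles, array 3), with the number of genes tested in brackets. Against array 2 the DNA replication median is -1.32 and the newly formed oligodendrocyte median -0.33, where the other 3 arrays give -3.89 to -4.03 and 0.89 to 1.02.

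Myelin genes in knockout cells ranged from among the brightest signals of the array to signals under 100. Of 22 tested, 9 were higher than in progenitors and 0 lower, with a median of 1.71. With array weights 19 were higher, and in 1 fit of all 11 arrays 14. Mbp, the major cytoplasmic myelin protein, gave 18058, 15944 and 17987 in knockout cells and 1338, 19380, 15042 and 1587 in progenitors. Progenitor arrays 2 and 3 were at the knockout level and arrays 1 and 4, with the low 5′ to 3′ ratios, were more than 8-fold lower. The log2 difference of Mbp was 1.79 ± 0.95 (SE, adjusted p = 0.157), 2.45 (adjusted p = 0.03) without array 2 and 0.02 (adjusted p = 0.941) without arrays 1 and 4. The 8 probe sets of Mbp gave differences from 0.47 to 4.44, of which 1 passed. Cnp, an enzyme of non-compact myelin, gave 20751, 17642 and 21228 against 10678, 27153, 21714 and 15840 (log2 difference 0.16 ± 0.29 SE, adjusted p = 0.689; -0.09 without progenitor array 1 and -0.29 without arrays 1 and 4). It was 0.75 (adjusted p = 0.0365) after quantile normalization and 0.61 (adjusted p = 0.0291) with array weights, and its other probe sets gave 1.43 and 2.29. Signals of this size lie at the bright end of the array, where differences can be compressed.

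Cldn11, the claudin of myelin tight junctions, was higher at 14266, 10313 and 11397 against 2803, 7007, 4753 and 1734 (1.74 ± 0.43 SE, adjusted p = 0.0151 on the log2 scale), and Tspan2, a tetraspanin, at 4400, 3284 and 3294 against 344, 1595, 1193 and 304 (2.44 ± 0.59 SE, adjusted p = 0.0132). Neither gene's groups overlapped, and both lost their call without knockout array 1 (adjusted p = 0.0607 and 0.0527). The chaperone Cryab was at least 17.2-fold higher (adjusted p = 0.00244), the connexin Gjc3 at least 12.6-fold (adjusted p = 0.00744), Ninj2 at least 7.58-fold (adjusted p = 0.00368) and Car2, a carbonic anhydrase, at least 6.21-fold (adjusted p = 0.00683). Against control oligodendrocytes Tspan2 was lower in knockout cells, at -1.78 ± 0.17 (SE, adjusted p = 0.000326), a call lost in 1 fit of all 11 arrays (adjusted p = 0.0698), while Cryab (-0.53 ± 0.40 SE, adjusted p = 0.401) and Gjc3 (0.44 ± 0.41 SE, adjusted p = 0.494) did not pass.

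Mag, Mobp and Opalin did not pass against progenitors and were lower than in control oligodendrocytes. Mag, an adhesion protein of the innermost myelin layer, gave 639, 593 and 95.3 in knockout cells, 107, 2957, 622 and 145 in progenitors and 13198 ± 925 (SD, n = 4) in control oligodendrocytes. Its log2 difference was -0.32 ± 1.17 (SE, adjusted p = 0.844) from progenitors and -5.32 ± 0.57 (SE, adjusted p = 0.000537) from controls. The difference from progenitors turned positive without progenitor array 2 (0.63), without knockout array 3 (0.58) and with array weights (1.27). Mobp gave 903, 684 and 35.3 against 18.9, 69.9, 751 and 57.8 (adjusted p = 0.364; 3.40 on the log2 scale and adjusted p = 0.0323 with array weights), and its knockout arrays differed from controls by -5.99 ± 0.95 (SE, adjusted p = 0.00388) on the log2 scale. Opalin, a transmembrane myelin protein, gave 620.4, 598 and 419 against 120.4, 909, 336 and 103 (log2 difference 1.11 ± 0.70 SE, adjusted p = 0.228; 1.74 (adjusted p = 0.0119) without array 2), and -1.95 ± 0.22 (SE, adjusted p = 0.00061) against controls, the latter not in 1 fit of all 11 arrays (adjusted p = 0.0958). Mog and Ermn never reached a signal of 90 on the 7 arrays and were not tested between knockout cells and progenitors, whereas they averaged 2180 ± 2164 (SD, n = 4) and 1757 ± 946 (SD, n = 4) in control oligodendrocytes. Among 30 myelin genes tested against controls, 1 was higher and 20 lower in knockout cells (0 higher without knockout array 1, 2 or 3 or control array 4, and 12 lower in 1 fit of all 11 arrays). Genes as dim in knockout cells as Mog and Ermn could pass this filter only through the control arrays. The count of lower genes is therefore partly set by the filter. Against progenitors the counts were 17 higher and 1 lower without array 2, and 9 higher and 0 lower without arrays 1 and 4 (median 0.68).

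**Figure D5:**
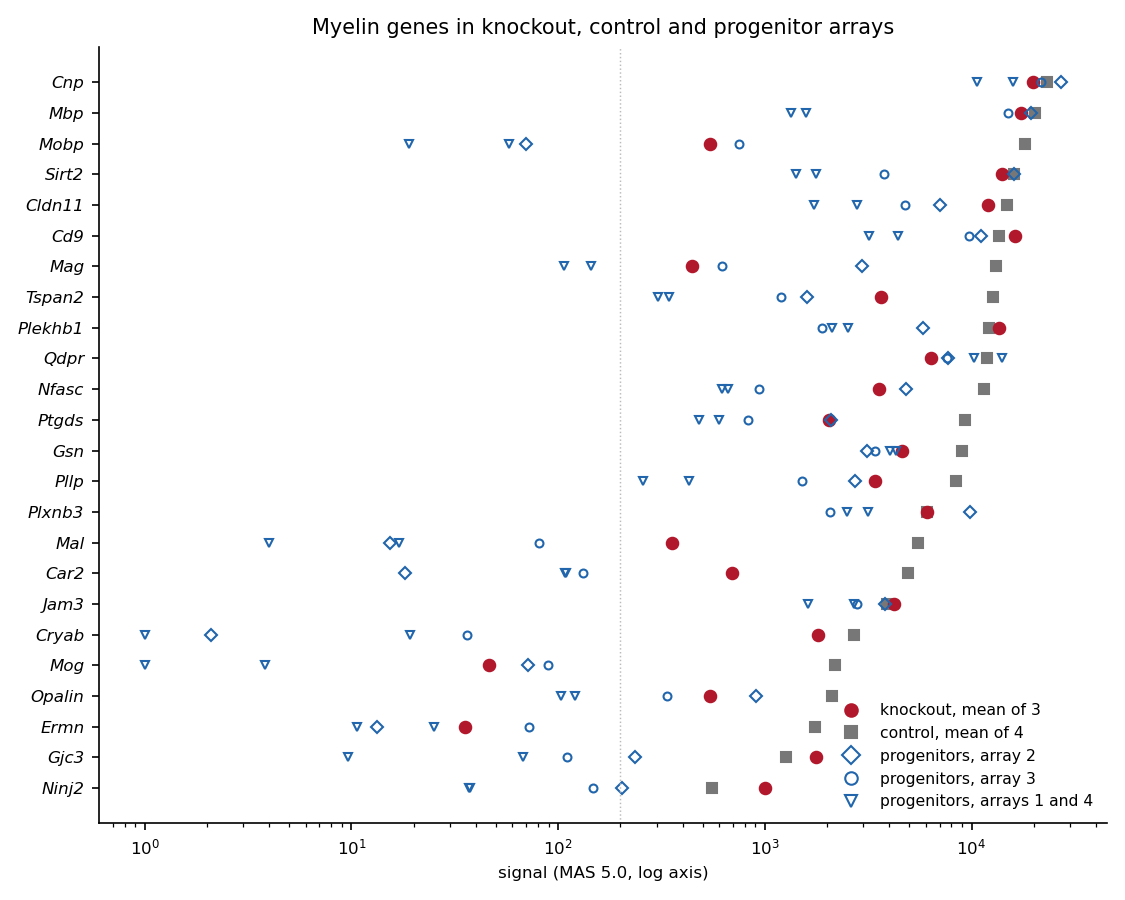
Signals (log axis) of the 22 myelin genes tested and of Mog and Ermn, ordered by the control mean: knockout mean of 3 (filled circles), control mean of 4 (squares) and each progenitor array (open symbols); values under 1 are drawn at 1 and the dotted line marks 200. Mobp, Mag, Mog and Ermn have knockout means at or below 541, within or near the progenitor arrays, and control means of 1757 or more.

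Cholesterol synthesis, on which myelin membrane depends, was lower in knockout cells than in progenitors. Of 19 genes tested, 12 were lower and 0 higher, with a median of -0.82. Idi1, which isomerises isopentenyl diphosphate, gave 2651, 2723 and 2738 against 8493, 8971, 7756 and 11415, 3.35-fold lower (log2 difference -1.75 ± 0.18 SE, adjusted p = 0.000453), with tight and separate groups. Lss, the cyclase that makes lanosterol, was 3.44-fold lower (adjusted p = 0.004), Tm7sf2 3.04-fold (adjusted p = 0.00169), Fdft1, squalene synthase, 2.95-fold (adjusted p = 0.00203) and Nsdhl 2.5-fold (adjusted p = 0.00158). Cyp51 was just short, at -0.82 ± 0.31 (SE, adjusted p = 0.0635), and passed without progenitor array 4 (adjusted p = 0.0447) and without arrays 1 and 4, at -1.25 (adjusted p = 0.012). With the median of its probe sets Cyp51 stood at -1.91 (adjusted p = 0.000216). Control oligodendrocytes had 4323 ± 784 (SD, n = 4) of Idi1 and 1369 ± 311 (SD, n = 4) of Lss. The count was 1 higher and 13 lower without array 2 and 0 higher and 14 lower without arrays 1 and 4, and against each single progenitor array the median was between -0.86 and -1.40.

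The promoter table matched 16 of the 22 listed cholesterol genes with 19 promoters, of which 84.2% held CCAAT on either strand against 37.4% of the whole table. The sterol response letters TCACNCCAC stood in 1 of the 19 (5.26%) against 1.24% of the table, and 1 promoter is too few for a comparison. The genes shown have the largest falls among those with 1 promoter in the table and a CCAAT match before the start, so a match is given by the choice. The 250 bases before the start of Lss, at chr10:76531355-76531604 on the plus strand, and of Idi1, at chr13:8885356-8885605 on the plus strand, have CCAAT or its reverse complement in capitals.
Lss: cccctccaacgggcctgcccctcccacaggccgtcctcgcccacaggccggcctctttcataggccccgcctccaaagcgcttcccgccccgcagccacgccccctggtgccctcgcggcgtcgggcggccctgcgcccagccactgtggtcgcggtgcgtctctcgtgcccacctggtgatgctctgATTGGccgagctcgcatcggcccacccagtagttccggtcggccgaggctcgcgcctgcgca
Idi1: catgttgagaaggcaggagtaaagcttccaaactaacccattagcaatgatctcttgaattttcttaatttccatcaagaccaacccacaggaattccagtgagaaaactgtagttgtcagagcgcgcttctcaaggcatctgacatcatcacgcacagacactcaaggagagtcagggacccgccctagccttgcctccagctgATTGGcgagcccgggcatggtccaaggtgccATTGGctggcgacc
Lss has 1 match in this window and Idi1 has 2.

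Other lipid genes were called in both directions. Of 23 genes of sphingolipid, galactolipid and fatty acid synthesis, 7 were higher and 5 lower. Over all genes 18.3% were higher and 21.9% lower, so the lower count is near the share of all genes. The list had 11 higher and 5 lower without progenitor array 2 and 6 higher and 5 lower without arrays 1 and 4. It had 4 higher without knockout array 1 and 3 higher without knockout array 2 or 3. With array weights 12 were higher. Scd1, the stearoyl-CoA desaturase, gave 12774, 13693 and 16646 against 4834, 6088, 4057 and 5201, 2.86-fold higher (adjusted p = 0.00102). Kdsr and Hacd2, enzymes that make the sphingoid base and very long fatty acids, were 2.8-fold and 2.71-fold higher (adjusted p = 0.00178 and 0.00219). The lower members included the elongase Elovl6 (3.04-fold), Acly, which makes acetyl-CoA (2.62-fold), acetyl-CoA carboxylase Acaca (1.95-fold) and fatty acid synthase Fasn (1.75-fold), with adjusted p of 0.00119, 0.00427, 0.0113 and 0.00735. Ugcg, which makes glucosylceramide, was 2.64-fold lower (adjusted p = 0.00859). Probe sets of both Acly and Ugcg disagree: with the median of probe sets they stood at -0.68 (adjusted p = 0.0836) and -0.10 (adjusted p = 0.854), and Acly at -0.45 (adjusted p = 0.348) with its probe set brightest over all 11 arrays. Fa2h, which hydroxylates the fatty acids of myelin lipids, gave 3669, 3235 and 2876 against 215, 3047, 496 and 183, with array 2 in the knockout range (log2 difference 2.72 ± 0.87 SE, adjusted p = 0.0366). Its call was lost without any 1 of the 6 arrays other than progenitor array 2 (adjusted p up to 0.103), and without arrays 1 and 4 it stood at 1.40 (adjusted p = 0.148).

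Of the factors that define the lineage, Olig2 and Sox10 had overlapping groups. Olig2, which specifies the lineage and drives Cre here, gave 9170, 8011 and 8894 against 8747, 12307, 17351 and 7410 (log2 difference -0.32 ± 0.28 SE, adjusted p = 0.379), and Sox10, needed for differentiation, 10611, 9600 and 9674 against 9136, 13107, 10061 and 12121 (-0.14 ± 0.17 SE, adjusted p = 0.518). Neither passed with all arrays, and after quantile normalization the differences had the other sign, at 0.01 for Olig2 and 0.23 for Sox10. The 3 probe sets of Sox10 disagree, at -0.14, 1.14 and 2.91 (adjusted p = 0.0349 for the last). Olig2 passed without progenitor arrays 1 and 4, at -0.75 (adjusted p = 0.0258). Whether the progenitors carried Cre in an Olig2 allele is not given in the labels, and its part in the Olig2 and Olig1 values was not tested. Olig1 was 1.63-fold lower (log2 difference -0.70 ± 0.20 SE, adjusted p = 0.0268), a call lost without knockout array 1 or 2 (adjusted p up to 0.11) or progenitor array 4 (adjusted p = 0.0532). It was also lost after quantile normalization, at -0.08 (adjusted p = 0.441), with no filter (adjusted p = 0.0622) and without the trend (adjusted p = 0.0538). Nkx2-2, a homeodomain factor active as differentiation starts, gave 9912, 10129 and 8890 against 2873, 12128, 3237 and 2735 (adjusted p = 0.0806), and 1.71 (adjusted p = 0.000134) without array 2. Nkx6-2, a later homeodomain factor, was at least 3.78-fold higher (adjusted p = 0.0108).

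Sox11, a factor of immature neural cells, fell from 9362, 4556, 10393 and 13135 to 202, 349 and 97.1, at least 45.5-fold (adjusted p = 0.000251). This probe set, at -5.52 on the log2 scale, had the largest fall of those for Sox11. The others also passed but gave smaller falls, of -1.73, -2.51, -2.63, -3.30 and -3.47. Tcf12, a helix-loop-helix partner of the Olig factors, was 2.12-fold lower (adjusted p = 0.00419), but with the median of its probe sets stood at -0.30 (adjusted p = 0.467). Myt1, a zinc finger factor, was 2.15-fold lower (adjusted p = 0.0118), a call lost without knockout array 2 (adjusted p = 0.0577). Of the 20 lineage factors tested, 1 was higher and 6 lower, with 3 higher and 7 lower without progenitor array 2, 1 higher and 7 lower without arrays 1 and 4, and 3 and 2 lower without knockout array 1 and 2. After quantile normalization they were 3 higher and 5 lower.

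Inhibitors of differentiation were among the genes that rose most. Id4, which binds helix-loop-helix activators and keeps them from DNA, gave 7605, 9227 and 5308 in knockout cells and 158, 128, 93.5 and 94.6 in progenitors, at least 60.4-fold higher (log2 difference 5.96 ± 0.29 SE, adjusted p = 1.61e-05). Id1 was at least 31.1-fold higher at 3928, 5628 and 4056 against 61.6, 429, 77.4 and 75.5 (adjusted p = 0.000807) and Id3 12.7-fold higher (adjusted p = 0.0029), and for both array 2 was the highest progenitor array. Id2 was just short, at 0.85 ± 0.30 (SE, adjusted p = 0.0524), and passed without progenitor array 4 (adjusted p = 0.00731) and without arrays 1 and 4, at 1.25 (adjusted p = 0.00462). With the median of its probe sets Id2 stood at 1.75 (adjusted p = 0.000503), and it passed under 8 of 19 alternatives. The BMP receptor Bmpr1b was at least 9.05-fold higher (adjusted p = 0.000365) and Hey1, a repressor induced by Notch, 5.62-fold higher (adjusted p = 0.000395). The Notch ligand gene Dll3 was 3.58-fold lower (adjusted p = 0.0185), a call lost without knockout array 2 (adjusted p = 0.08). In all, 8 of 17 genes that oppose differentiation were higher and 3 lower, with a median of 0.80. These counts were 8 higher and 3 lower without array 2, 9 higher and 2 lower without arrays 1 and 4, 7 higher and 0 lower without knockout array 2 and 6 higher and 1 lower without knockout array 3. Control oligodendrocytes had Id4 at 3789 ± 1798 (SD, n = 4). The knockout difference from them was 1.11 ± 0.44 (SE, adjusted p = 0.127), and 1.17 (adjusted p = 0.0231) with the replicate number as a block.

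Of 15 receptors for other growth factors and ligands tested, 7 were higher and 4 lower, with 7 higher and 5 lower without progenitor array 2, 8 higher and 2 lower without arrays 1 and 4 and 7 higher and 2 lower without knockout array 2 or 3. Fgfr3, a receptor for FGF, gave 2610, 2510 and 2617 against 211, 239, 206 and 254, 11.4-fold higher (adjusted p = 2.84e-05), with little spread in either group. Fgfr2 was 5.4-fold higher (adjusted p = 0.000531), the chemokine receptor Cxcr4 at least 4.04-fold (adjusted p = 0.00378), Il6st, the shared subunit of interleukin 6 family receptors, 3.68-fold (adjusted p = 0.000354) and the endothelin receptor Ednrb 3.28-fold (adjusted p = 0.000453). The insulin receptor Insr was 2.11-fold lower (adjusted p = 0.00496). Kit, the stem cell factor receptor, was at least 3.59-fold lower (adjusted p = 0.0112), a call lost, at -2.15 (adjusted p = 0.0702) on the log2 scale, without progenitor arrays 1 and 4.

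Genes that mark astrocytes were among the largest rises of the comparison. Gfap, the intermediate filament of astrocytes, gave 16477, 15352 and 16881 in knockout cells and 87.5, 61.8, 73.1 and 100.3 in progenitors, at least 162.1-fold higher (log2 difference 7.68 ± 0.23 SE, adjusted p = 3.80e-06). Mlc1, a membrane protein of astrocyte end feet, gave 6465, 8056 and 7674 against 1.6, 3.1, 3.1 and 2.5, at least 73.7-fold higher (adjusted p = 8.11e-06). Gja1 (connexin 43) was at least 65.3-fold higher, the water channel Aqp4 at least 41.7-fold and the folate enzyme Aldh1l1 at least 36.5-fold, and all 4 progenitor arrays were under a signal of 100 for each. Their adjusted p-values were 4.60e-06, 4.16e-05 and 1.51e-05.

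Of 18 astrocyte markers tested, 16 were higher and 0 lower, with a median of 4.08, and the counts were 16 without array 2 and 15 without arrays 1 and 4. Members as dim in progenitors as Gfap and Mlc1 passed the filter only through the knockout arrays, so this count is partly set by the filter. With no filter 16 of 20 were higher and 0 lower, with a median of 3.61. Markers with progenitor signals above 1000 included Aldoc, 3.11-fold higher, Glul (glutamine synthetase), 2.99-fold higher, and the sodium pump subunit Atp1b2, 3.97-fold higher, with adjusted p of 0.000354, 0.00202 and 0.00283. Sox9 did not pass, at 935, 1475 and 2017 against 800.5, 165, 1502 and 551 (adjusted p = 0.15). The summed signal of the 20 listed markers was 132615 to 144451 on the knockout arrays, 86704 to 122997 on the control arrays and 15749 to 20488 on the progenitor arrays. Against controls, 1 of 18 astrocyte markers was higher (0 without knockout array 1 or 3, 2 without control array 1 or 4, and 7 with the replicate number as a block), and Gfap (0.05 ± 0.09 SE, adjusted p = 0.752 on the log2 scale) and Mlc1 (0.54 ± 0.18 SE, adjusted p = 0.0867) did not pass. In these bulk cultures a larger share of cells of a type and more RNA per cell cannot be told apart.

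Some of the largest rises lay outside the marker lists. S1pr3, a receptor for sphingosine 1-phosphate, was at least 79.1-fold higher, Mgst1, a membrane glutathione transferase, at least 62.5-fold, Ifitm3, an interferon-induced membrane protein, at least 46.6-fold, the calcium-binding protein S100a4 at least 53.3-fold, the matrix protein Sparcl1 66-fold and the lipid exporter Abca1 at least 60.2-fold. Their adjusted p-values ran from 1.29e-05 for Abca1 to 0.00126 for S100a4. Control oligodendrocytes averaged 7013 ± 2016 (SD, n = 4) for S1pr3, 13358 ± 2445 (SD, n = 4) for Sparcl1 and 5917 ± 1636 (SD, n = 4) for Abca1, against knockout means of 7957, 15028 and 7304.

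Of 10 genes of reactive glia tested, 6 were higher and 0 lower, with 6 higher and 2 lower without progenitor array 2 and 5 higher and 0 lower without arrays 1 and 4. Members dim in progenitors passed the filter only through the knockout arrays, so this count is partly set by the filter. With no filter 6 of 15 were higher and 0 lower, with a median of 0.83. Lcn2 (lipocalin 2) gave 1002, 2103 and 4080 against 2.4, 18.3, 33.8 and 2.6, at least 20.5-fold higher (adjusted p = 0.00116). The oncostatin M receptor Osmr was at least 13.8-fold higher (adjusted p = 0.000627), the calcium-binding protein S100a6 at least 18.4-fold (adjusted p = 0.00588) and annexin Anxa2 7.94-fold (adjusted p = 0.0032). The hyaluronan receptor Cd44 was at least 12.8-fold higher (adjusted p = 0.0159), a call lost without knockout array 2 or 3 (adjusted p up to 0.0618). Galectin 1 (Lgals1) gave 2904, 3853 and 6232 against 11516, 2308, 10824 and 11452 and did not pass (adjusted p = 0.245), but was lower without array 2, at -1.45 (adjusted p = 0.0028).

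Most cartilage type matrix genes bright enough to be tested were higher in knockout cells than in either other group. Of 14 listed, 8 were tested against progenitors and 7 were higher, with a median of 4.68. Against control oligodendrocytes 8 of 8 were higher (5 of 8 without knockout array 1). The 8 tested against progenitors had mean log2 levels of 11.19 to 11.48 on the knockout, 6.12 to 7.4 on the progenitor and 6.61 to 8.76 on the control arrays. Members thus passed the filter mainly through the knockout arrays, and these counts are partly set by the filter. Matn1 (matrilin 1) gave 4953, 6102 and 3192 in knockout cells, 3, 52.2, 19.6 and 14.8 in progenitors and 71.5 ± 59.4 (SD, n = 4) in controls, at least 45.9-fold above progenitors (adjusted p = 0.00043) and a log2 difference of 6.47 ± 0.67 (SE, adjusted p = 0.000454) from controls. Col2a1, the main cartilage collagen, gave 2615, 2700 and 3263 against 4.5, 10.1, 6.2 and 8.3, at least 28.4-fold higher (adjusted p = 1.96e-05). Against controls its difference was 4.35 ± 1.21 (SE, adjusted p = 0.044), a call lost without any 1 knockout array or control array 2 (adjusted p up to 0.132), with no filter (adjusted p = 0.0536) and without the trend (adjusted p = 0.0574). Col11a2 was at least 18.6-fold above progenitors, Col9a3 12.1-fold and the proteoglycan Acan (aggrecan) at least 6.14-fold, with adjusted p of 0.000758, 0.000166 and 0.000402. The counts were 7 of 8 without array 2 and 7 of 8 without arrays 1 and 4.

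Markers of other cell types were read as a check on the cultures. No microglial marker of 11 exceeded 152.2 on any array and no endothelial marker with a probe set, of which there were 7, exceeded 282.8, and none was bright enough to be tested. Of the smooth muscle, pericyte and fibroblast list, 3 of 13 genes were tested and all were higher in knockout cells, also without progenitor array 2 and without arrays 1 and 4: the actin-binding Tagln at least 24.3-fold, the myosin light chain Myl9 at least 17.7-fold and the actin Acta2 6.97-fold, with adjusted p of 6.92e-05, 6.28e-05 and 0.00183. The mean log2 level of these 3 was 10.52 to 11.06 on the knockout arrays and 4.5 to 5.66 on the progenitor arrays. They thus passed the filter mainly through the knockout arrays, and that all were higher is partly set by the filter. The summed signal of that list was 4872 to 8408 in knockout cells, 1044 to 2992 in controls and 369.3 to 594.9 in progenitors. Its part in other results was not tested. Of 8 neuronal markers tested, 4 were lower and 0 higher, with 1 higher and 5 lower without progenitor array 2 and 0 higher and 5 lower without arrays 1 and 4. They included Map2, a microtubule protein, at 4118, 2717 and 3104 against 5399, 9512, 7867 and 5386 (log2 difference -1.07 ± 0.26 SE, adjusted p = 0.0142), a call lost without knockout array 2 or 3 (adjusted p up to 0.0661) and, at -0.03 (adjusted p = 0.939), with the median of its probe sets. Pou3f1, a factor of Schwann cells that progenitors also express, was 8.85-fold lower (adjusted p = 0.0134), a call lost without knockout array 2 (adjusted p = 0.0505) and, at -2.18 (adjusted p = 0.0599), without progenitor arrays 1 and 4.

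Ribosomal protein genes were lower as a group, 14 of 17 tested and 0 higher, with a median of -0.90. The counts were 13 lower without progenitor array 2, 17 without arrays 1 and 4 and 9 without knockout array 2. Rpsa gave 9091, 8211 and 10614 against 23295, 23133, 33438 and 30363, 2.94-fold lower (adjusted p = 0.000793), and Rps6 728, 562 and 679.5 against 3712, 3271, 2858 and 3664, 5.14-fold lower (adjusted p = 0.000197). Rps18 and Rplp0 were 2.41-fold and 2.3-fold lower (adjusted p = 0.00154 and 0.00463). These genes share sequence with many pseudogenes, so single members are uncertain. Each value is relative to the rest of its array, and after quantile normalization 11 of the 17 were lower with a median of -0.42.

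Stress and immune genes were read as a further check. Of 15 genes of the unfolded protein response, 3 were higher and 3 lower (3 higher and 4 lower without progenitor array 2, 2 higher and 2 lower without arrays 1 and 4, 1 higher and 1 lower, 2 higher and 1 lower and 1 higher and 2 lower without knockout arrays 1, 2 and 3). They included the chaperone Dnajb9 at 2.64-fold higher (adjusted p = 0.00171). Of 14 genes of p53 and apoptosis, 1 was higher and 2 lower, with 2 higher and 5 lower without progenitor array 2, 2 higher and 2 lower without arrays 1 and 4, 2 higher and 2 lower without progenitor array 3, 0 of either without knockout array 2 and 1 higher and 1 lower without knockout array 1 or 3 or progenitor array 1. Of 8 interferon and antigen presentation genes tested, 6 were higher and 0 lower. Tapbp, which helps load peptide onto MHC class I, gave 949, 1194 and 1156 against 142, 265, 231 and 144, 5.82-fold higher (adjusted p = 0.000742), and B2m, the light chain of MHC class I, was 2.36-fold higher (adjusted p = 0.00535). The interferon counts were 6 of 8 without array 2, 6 of 8 without arrays 1 and 4, and 3 of 8 without knockout array 2.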

How the data were processed

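Total RNA of each sample was measured on an Affymetrix Mouse Genome 430 2.0 array. The deposited intensity values are MAS 5.0 signals on a linear scale, scaled by the authors to a target of 500 per the labels, with GCOS 1.3 named in the submitters' processing notes. Of 45101 probe sets, 34958 have 1 gene in the platform annotation, 932 have several and 9211 have none, and 64 control probe sets were left out. Symbols were updated by Entrez identifier for 34754 probe sets.

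Signals were set to log2, with 0 replaced by 0.1. Knockout and progenitor arrays were fitted alone with limma 3.58.1 in R 4.3.3 (lmFit and eBayes with a trend), over 17765 probe sets that reached 200 on at least 3 of the 7 arrays, and p-values were adjusted by Benjamini-Hochberg over all of them. Each of the 9791 genes took its probe set with the highest mean. Threshold was an adjusted p of 0.05. Folds set signals under 100 to 100 and are written "at least" where this touched an array of the dimmer group. Knockout against control oligodendrocytes was fitted the same way, alone. The number of arrays, 3 and 4 a group, limits the precision, and an exact permutation test of 1 value could not go below 0.0571.

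Genes named were Myrf, a panel, the 12 largest changes each way, and up to 5 called and 3 bright uncalled members of each list, not all of which are printed. The members and the 25 lists were chosen with earlier results of these data known. Tested on simulated data, the fit recovered changes put into 200 of 17765 probe sets for 9% at a log2 change of 1 and 63% at 2, with 4% false among calls. The simulated noise was independent and of the same size on every array, and far fewer probe sets changed than passed in the real comparison. These rates therefore need not hold for the real arrays, of which some stood apart. Deviations of knockout and control arrays with the same number correlated weakly, at 0.103, 0.165 and 0.274. A pairing would rest on the data and not on the labels. Values against controls come from an unpaired fit unless another fit is named. The blocked fit of this comparison is an alternative, given where it changed a call. Promoters are from RefSeq, build GRCm38.p6. Alternatives changed the filter, the offset, the normalization, the probe set per gene, array weights, the trend, the arrays fitted and the replicate block, and left out each array in turn. The fit with the replicate block used arrays 1 to 3 of each group, so it also left out progenitor or control array 4.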

Additional observations from a re-analysis of the deposited data

Results flagged for a closer look

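Some progenitor signals stood far from the other 3 arrays of the group by Dixon's gap test, which chance alone meets in about 1 of 20 groups. Most of them were on progenitor array 2. This array was the highest for Myrf (6848), Cdkn1c (3455), C1ql1 (271), Bmp4 (3614), Enpp6 (6560), Mycl (755), Tcf7l2 (2408), Fa2h (3047), Nkx2-2 (12128), Id1 (429), Id3 (2568) and S100a6 (908). It was the lowest for Cspg4 (1131), Anxa2 (125), Lgals1 (2308) and Acan (26.8). Its mean log2 level was also the lowest for the lists of DNA replication (9.33), mitosis (9.79), G1 control (9.35), ERK feedback and early response (9) and p53 and apoptosis (8.54). It was the highest for cholesterol synthesis (11.98) and for sphingolipid, galactolipid and fatty acid synthesis (11.37). The counts of each list without this array stand beside the results. Progenitor array 3 was the highest for Rfc3 (1600) and Mobp (751). Progenitor array 4 was the highest for Tcf12 (16751) and the lowest for Aldoc (3646) and B2m (884). Among control oligodendrocytes, array 1 was the lowest for Cryab (1160).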

How the results depend on the processing

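The count of genes between knockout cells and progenitors was 2793 higher, 3332 lower and 6125 in all with array weights. It was 1350 lower with the replicate number as a block, a fit that also left out progenitor array 4 (1735 lower without that array alone). Same-numbered arrays of these groups did not deviate together (correlations of -0.0623, -0.012 and 0.0113). Leaving out 1 array gave 1078 to 2361 higher, 1031 to 2724 lower and 2109 to 5085 in all. Between knockout and control oligodendrocytes, 1 fit of all 11 arrays gave 259 higher, 329 lower and 588 in all. The replicate block, which also left out control array 4, gave 1220 higher. Leaving out 1 array gave 321 to 754 higher, 440 to 636 lower and 761 to 1390 in all. The cause of these shifts was not tested. Of 2578 values of 136 genes against progenitors under 19 alternatives, 2442 kept direction and side of the threshold, 78 lost the call, 45 gained one and 13 changed sign. The sign changed with quantile normalization for Bcas1 (0.35), Olig2 (0.01) and Sox10 (0.23), with array weights for Mag (1.27) and Sox10 (0.03), and with the median of probe sets per gene for Bcas1 (1.28) and Sox10 (1.14). Leaving out 1 array gave -0.96 to 0.63 for Mag, positive without knockout array 3 (0.58) or progenitor array 2, and -0.09 to 0.36 for Cnp, negative without progenitor array 1. It changed without progenitor arrays 1 and 4 for Myrf (-0.28), Cnp (-0.29) and Opalin (-0.04). Against controls, 343 of 360 values of 20 genes kept direction and side, 10 lost the call and 7 gained one. Array weights also brought Myrf, Mbp, Mobp, Cnp, Opalin, Gpr17, Egr1, Phlda1, Thra, Lgals1, Nkx2-2, Rfc3, Cyp51 and Id2 past the threshold, and the replicate block took Ccnd1, Enpp6, Fa2h and Myt1 (adjusted p up to 0.0718) out of it. Other list counts that moved by over 1.5 times against progenitors were the higher p53 genes (3) and lower ones (6) with array weights, the lower thyroid hormone genes (4) in 1 fit of all 11 arrays, and the lower lineage factors (3) and receptors (2) with the block. Of the neuronal list 7 were lower with no filter and 2 with the filter at 400. The block changed no call of a gene named against controls other than Matn4 and Id4. Dim probe sets were limited by the filter at a signal of 200.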
